A study of Rattus norvegicus with 14 samples.

Results

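Protocadherins and cadherins are surface proteins whose extracellular repeats bind calcium and attach cells to their neighbours. All symbols starting with Pcdh, and those made of Cdh and a number, were taken where the mean normalized count reached 10 in the neuron or the astrocyte table. Of 54 such symbols, 49 were members. The 5 that stayed below the minimum in both tables were Cdh16, Cdh17, Cdh26, Pcdh12 and Pcdhb1. In all, 18239 genes were listed for neurons and 31791 for astrocytes.

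The libraries came from primary cultures of embryonic day 18 rat hippocampus, all kept in an aging model (AM) medium. For neurons this was a medium with reduced supplement, and for astrocytes, which were prepared by shaking mixed glia, a medium with charcoal-stripped serum. There were 4 neuron libraries with vehicle (AM-Veh) and 4 with allopregnanolone (AM-Allo, 100 nM for 16 h), and 3 of each for astrocytes (100 nM for 24 h). Allopregnanolone (Allo) is a neurosteroid that modulates the GABA type A receptor, and AM-Veh received the ethanol it was dissolved in. The neuron libraries are numbered 1-1, 1-2, 2-1 and 2-2 in each group. Libraries whose number starts with 1 are called set 1 here and those starting with 2 set 2, since the labels do not say what that part of the number stands for. Nothing in the labels says that replicates were separate cultures, so p-values measure the spread between these libraries.

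The clustered protocadherins (alpha, beta and gamma) sit side by side on a single chromosome, and each neuron uses its own combination of them, which lets a neuron tell its own branches from those of others. The delta protocadherins are encoded outside the clusters and steer axon growth and synapse number, in part through the WAVE complex that builds actin. Classical cadherins of type I and type II bind catenins inside the cell, hold adherens junctions and synapses together and sort neurons into circuits.

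The markers of other cells bear on every level below. The neuron cultures carried Map2, a dendrite protein, at 24729 normalized counts in AM-Veh, against 3873 in astrocyte cultures. Rbfox3, Tubb3, Syn1, Slc17a7, Dcx and Nefl were also higher in the neuron cultures. The neuron markers Stmn2 (9470 against 21790) and Gad1 (1254 against 1803) were higher in the astrocyte cultures. The neuron cultures also carried the astrocyte filament gene Gfap at 94233, against 135934 in astrocyte cultures. Of the other astrocyte markers, Aqp4, Sox9, Aldoc and Fgfr3 were also lower in the neuron cultures. Slc1a3 (60228 against 45007), S100b (17303 against 4775), Slc1a2, Gja1 and Aldh1l1 were higher there. Olig1, a factor of the oligodendrocyte lineage, stood at 14684 in neuron cultures and at 944 in astrocyte cultures. Those of the 9 microglial markers that each table lists summed to between 17 and 55 in neuron libraries and between 1445 and 1921 in astrocyte libraries. The 7 mesenchymal markers summed to between 666 and 2688 in neuron libraries and between 67697 and 80940 in astrocyte libraries. Col1a1, Col1a2, Col3a1, Pdgfrb and Acta2 had higher AM-Veh means in astrocyte cultures. Dcn went the other way (183 in neuron and 5.86 in astrocyte cultures), as did Lum near the minimum (11.9 and 8.11). In such bulk samples, fewer cells of a type and less RNA per cell cannot be told apart. From the lowest values of each table, 1 read was worth 0.838 to 1.14 normalized counts, which puts the reads on genes at 19600000 to 28600000 per library.

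The main difference in level lay between the cultures. Normalized counts were not divided by transcript length. Members named for the highest counts are therefore not ranked by expression, since a count also grows with the length of the transcript. The tables of the cultures were normalized separately, so their values are set side by side with no test. Of the 49 members, 15 (30.6%) had an AM-Veh mean at least 4 times higher in the neuron table, on the scale of normalized count + 1. Among all genes measured in both tables that share was 9.89%. Only Cdh3 (2.04% of members, against 9.4% of all genes) was at least 4 times higher in the astrocyte table, and the other 33 lay within 4 times. The 15 were the clustered genes Pcdha4, Pcdhb2, Pcdhb3 and Pcdhb5, the other protocadherins Pcdh15, Pcdh17, Pcdh19 and Pcdh20, and the cadherins Cdh7, Cdh9, Cdh10, Cdh12, Cdh13, Cdh15 and Cdh18. Of these Pcdhb2, Pcdh15, Cdh9, Cdh15 and Cdh18 became members through the neuron table alone, and Cdh3 through the astrocyte table alone. The choice of members thus fixed which table was higher for them, though not by how much. Cdh5 also became a member through the neuron table alone, but lay within 4 times. Of the 42 members that reached the minimum in both tables, 10 (23.8%) were at least 4 times higher in the neuron table, against 6.35% of all genes at the minimum in both. Among them Cdh10, a type II cadherin of synapses, had AM-Veh means of 951 in neurons and 49.2 in astrocytes. Of those that became members through the neuron table alone, Cdh9, which specifies mossy fibre synapses in the hippocampus, had 99.95 and 4.36. Cdh15 (M-cadherin, named for muscle) had 104 and 3.05. The median within-group SD of the members on the log2 scale was 0.149 in neurons and 0.132 in astrocytes, against 0.108 and 0.0929 for all genes tested.

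**Figure D1:**
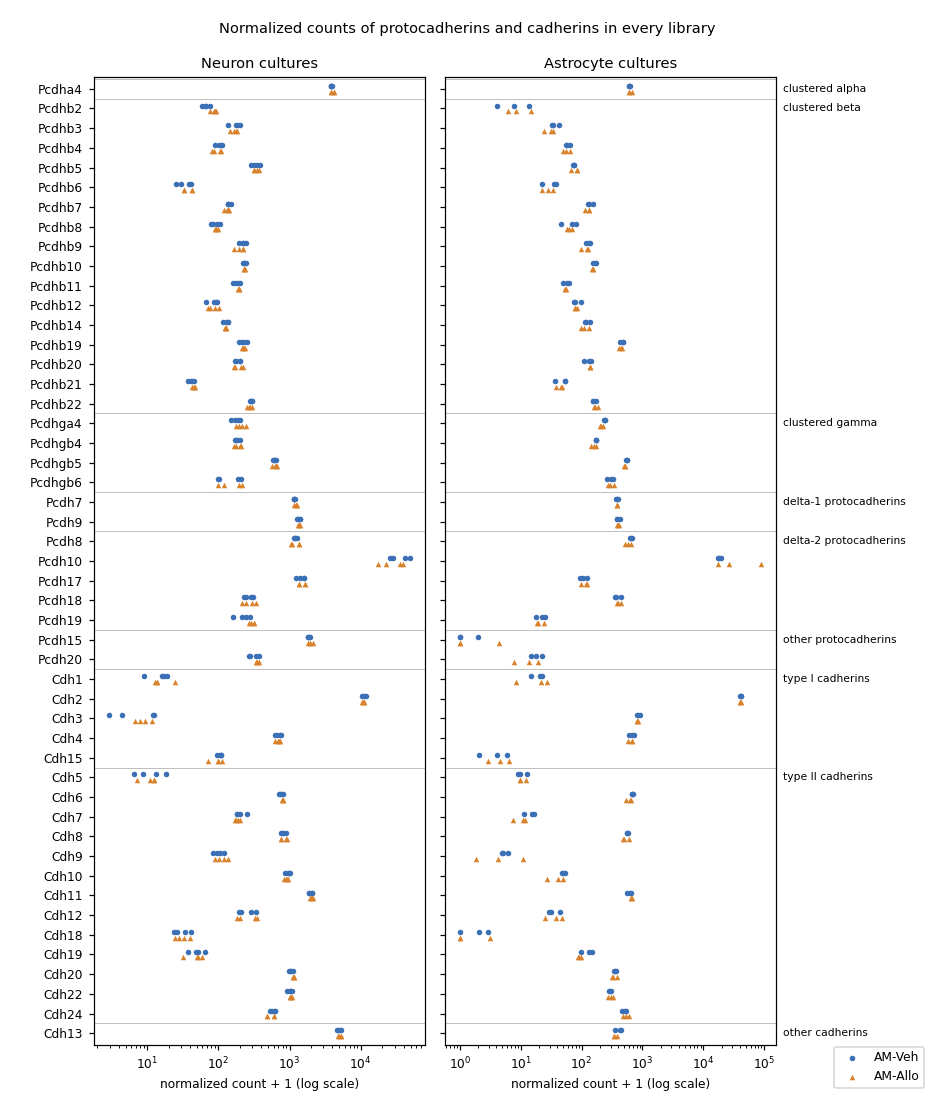
Normalized count + 1 on a log axis for each of the 49 members, with neuron libraries on the left (4 AM-Veh and 4 AM-Allo) and astrocyte libraries on the right (3 and 3). Each point is a library, circles are AM-Veh and triangles AM-Allo, and grey lines divide the subgroups. Most members hold a narrow range within a culture, while Pcdh10 spreads from 17448 to 88634 in astrocytes.

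Among the clustered genes, the alpha row Pcdha4 ranged from 3781 to 4204 normalized counts in neurons and from 591 to 661 in astrocytes. RefSeq gives the other alpha isoforms as synonyms of this gene, so the row may hold the whole alpha cluster. The beta genes have no exon in common, and their 16 members were measured 1 by 1. Of these, Pcdhb5 (287 to 382 in neurons and 67.3 to 84.7 in astrocytes) and Pcdhb22 (255 to 299 and 151 to 186) had the highest AM-Veh means of the subgroup in neurons. In astrocytes the highest beta AM-Veh means were those of Pcdhb19 (406 to 486 there and 193 to 249 in neurons) and Pcdhb10 (149 to 174 and 219 to 243). Pcdhb19 thus stood higher in the astrocyte table and the other 3 in the neuron table.

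The 4 gamma genes share constant exons, and RefSeq uses Pcdhgb4 and Pcdhgb5 as other names of neighbouring gamma genes, so the split of reads between them is uncertain. Pcdhgb5 ranged from 562 to 673 in neurons and from 501 to 568 in astrocytes. Pcdhgb4 lay between 163 and 205 in neurons and between 141 and 174 in astrocytes. Pcdhgb4 and Pcdhgb5 thus stood at like levels in both tables, whereas Pcdhgb6 had AM-Veh means of 149 in neurons and 298 in astrocytes.

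Of the delta-1 group, Pcdh7 ranged from 1159 to 1291 in neurons and from 371 to 394 in astrocytes, and Pcdh9 from 1294 to 1419 and from 380 to 422. Of the delta-2 group, Pcdh17, which acts at presynaptic sites, ranged from 1249 to 1667 in neurons and from 94.8 to 121 in astrocytes. Pcdh8, also known as arcadlin and induced by activity, ranged from 1063 to 1379 and from 522 to 661. Among the other protocadherins, Pcdh15, a part of the tip link of hair cells, ranged from 1824 to 2115 in neurons. It was at 0 in 4 of 6 astrocyte libraries and at 0.98 and 3.43 in the other two. Pcdh20 ranged from 267 to 371 in neurons and from 6.69 to 21.6 in astrocytes.

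Of the type I genes, Cdh2 (N-cadherin, the main cadherin of neural tissue) ranged from 10468 to 11917 in neurons and from 40537 to 41301 in astrocytes. Its spread in astrocytes was the smallest of all members, with a within-group SD of 0.00963 on the log2 scale. Cdh4 (R-cadherin) was at like levels, from 615 to 750 and from 576 to 722. Cdh3 (P-cadherin, an epithelial cadherin) ranged from 811 to 900 in astrocytes and from 1.88 to 11.5 in neurons, and it was the only member tested in astrocytes alone.

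Of the type II genes, Cdh11, known from osteoblasts and mesenchyme, ranged from 1852 to 2103 in neurons and from 547 to 681 in astrocytes. It was thus higher in the neuron table, like Dcn and Lum but unlike the other mesenchymal markers. Cdh6 ranged from 718 to 818 in neurons and from 542 to 694 in astrocytes. Cdh13 (T-cadherin) is not a type II gene and has a lipid anchor in place of a tail. It ranged from 4606 to 5337 in neurons and from 345 to 450 in astrocytes. Pcdhb2, Pcdh15, Cdh5, Cdh9, Cdh15 and Cdh18 fell below a mean of 10 in astrocytes and were tested in neurons alone, which left 42 members tested in both cultures.

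Allo was then compared with vehicle within each culture, with limma on log2(normalized count + 1) and p-values adjusted by Benjamini-Hochberg over all genes tested. In neurons, 3 of the 48 members tested had an unadjusted p under 0.05, the threshold the study used. These were Cdh20, Pcdh19 and Pcdhb2, and all 3 were higher with Allo (6.25% of members, against 3.21% of the 15314 genes tested). No member was lower at that threshold, against 2.48% of all genes. No member passed an adjusted p of 0.05 in limma, against 0.0261% of all genes, and the smallest adjusted p was 0.652. Of the 48 members 33 had a positive difference, where 49.2% of all genes did. The median log2 difference of the members was 0.02, and that of all genes was -0.0015.

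Neuron libraries of the same set deviated together, with or without the same whole number, so the comparison was also made with the number as a block. With the first part of the number as the block, 6 members had an unadjusted p under 0.05 and were higher with Allo (12.5%, against 5.76% of all genes), and none passed the adjusted threshold (smallest adjusted p = 0.167). The members added were Pcdh20 (unadjusted p = 0.0255), Pcdhga4 (unadjusted p = 0.0371) and Cdh6 (unadjusted p = 0.0469), each from limma. With the whole number as the block there were 5: Cdh20, Pcdh19, Pcdhb2 and Pcdh20 higher (8.33%, against 5.63% of all genes), and Pcdh10 lower (2.08%, against 5.04%). Without the block but leaving out AM-Veh replicate 1-1, Pcdh20 had an unadjusted p of 0.0103 in limma, and leaving out AM-Veh replicate 2-1, Cdh6 had 0.0205.

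**Figure D2:**
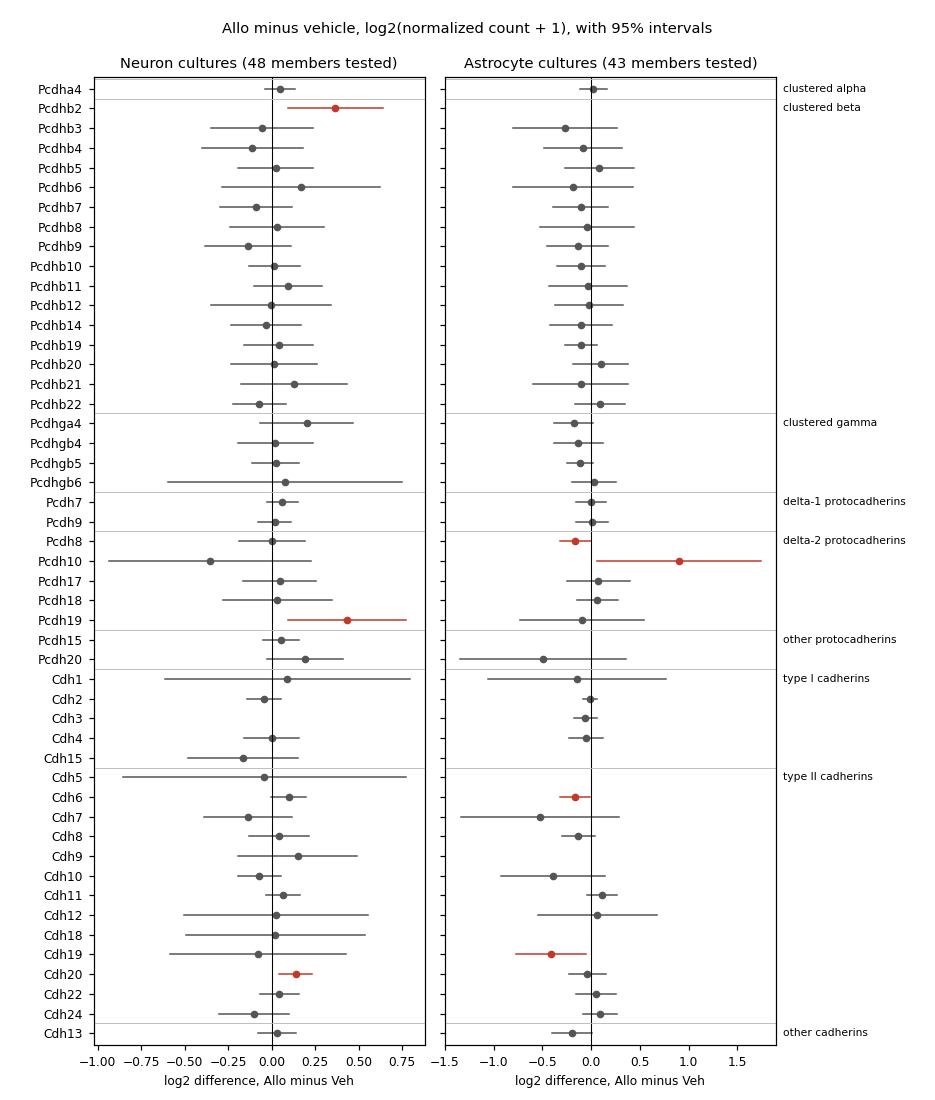
Allo minus vehicle on the log2(normalized count + 1) scale for each member tested, neurons on the left and astrocytes on the right, each axis with its own range. Points are limma estimates from 4 libraries a group in neurons and 3 in astrocytes, lines are 95% intervals, and red marks an unadjusted p under 0.05. In neurons the red points are Pcdhb2, Pcdh19 and Cdh20 at positive values, and in astrocytes Pcdh10 is positive while Pcdh8, Cdh6 and Cdh19 are negative.

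Cdh20 is a type II cadherin that the study picked from these libraries in its list of synapse formation genes, so its values are no independent evidence of a direction. In AM-Veh it stood at 1108, 1034, 991 and 1018 normalized counts (replicates 1-1, 1-2, 2-1 and 2-2), and in AM-Allo at 1167, 1117, 1151 and 1131. Every AM-Allo library lay above every AM-Veh library, though replicate 1-1 of AM-Veh came close. The means were 1038 ± 50.2 and 1141 ± 21.9 (SD, n = 4), a ratio of 1.10. On the log2 scale the difference was 0.14 (SE 0.0429), with an unadjusted p of 0.00859 and an adjusted p of 0.652 in limma. The exact permutation p was 0.0286, two-sided, the smallest that 4 against 4 can give. Within sets the log2 difference was 0.09 in set 1 and 0.18 in set 2. In astrocytes Cdh20 stood at 364, 351 and 335 in AM-Veh and at 380, 320 and 324 in AM-Allo, and the groups overlapped.

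Pcdh19 lies on the X chromosome, and its loss in humans causes an epilepsy of girls. It stood at 282, 212, 241 and 159 in AM-Veh and at 267, 317, 284 and 321 in AM-Allo. The groups overlapped through replicate 1-1 alone, where AM-Veh was the higher. The means were 224 ± 51.9 and 297 ± 26.2 (SD, n = 4), and the log2 difference was 0.44 (SE 0.153), with an unadjusted p of 0.0167, an adjusted p of 0.731 in limma and an exact permutation p of 0.0571. Within sets it was 0.25 and 0.62. In astrocytes, where Pcdh19 had means of 21.0 and 19.6, the log2 difference was -0.09 with a 95% interval from -0.73 to 0.54.

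Pcdhb2 is the first member of the beta cluster in the RefSeq gene order. It stood at 58.3, 66.9, 74.7 and 63.9 in AM-Veh and at 92.0, 88.0, 76.0 and 84.8 in AM-Allo. The groups did not overlap, but AM-Veh 2-1 and AM-Allo 2-1 nearly met. Its log2 difference was 0.37 (SE 0.124), with an unadjusted p of 0.0136, an adjusted p of 0.712 in limma and an exact permutation p of 0.0286. Cdh20 and Pcdhb2 were the 2 members whose groups did not overlap in neurons and that were higher with Allo (4.17% of members, against 2.06% of all genes), and no member was lower without overlap, against 1.89% of all genes. The 3 members kept an unadjusted p under 0.05 in all 19 alternatives.

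No other gene of the beta cluster reached an unadjusted p of 0.05. Of the 16 beta genes, 9 had a positive and 7 a negative log2 difference, from -0.14 to 0.37, and the next gene in order, Pcdhb3, was at -0.06. All 4 gamma genes had positive differences, from 0.02 to 0.20, and none reached an unadjusted p of 0.05 without the block. Pcdha4 differed by 0.05 on the log2 scale with a 95% interval from -0.04 to 0.13.

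Neuron markers differed in the same libraries. Of 9 neuron markers tested, Map2, Tubb3, Slc17a7 and Dcx were higher with Allo at an unadjusted p under 0.05 (44.4%, against 3.21% of all genes). Nefl was lower (11.1%, against 2.48%). The 9 markers summed to between 61329 and 67757 in AM-Veh and between 65882 and 72516 in AM-Allo. Their part in the result was not tested. None of the 10 astrocyte markers had an unadjusted p under 0.05, but 9 of them had a negative difference, where 50.8% of all genes did. Their median log2 difference was -0.04, and their part was not tested. Of the 9 oligodendrocyte lineage markers 8 had a positive difference, where 49.2% of all genes did. Cnp, a myelin enzyme, was higher at an unadjusted p of 0.0347 in limma (11.1% of that list, against 3.21%). The sum of the 9 markers ranged from 52475 to 56442 in AM-Veh and from 53576 to 60483 in AM-Allo, and their part was not tested.

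**Figure D3:**
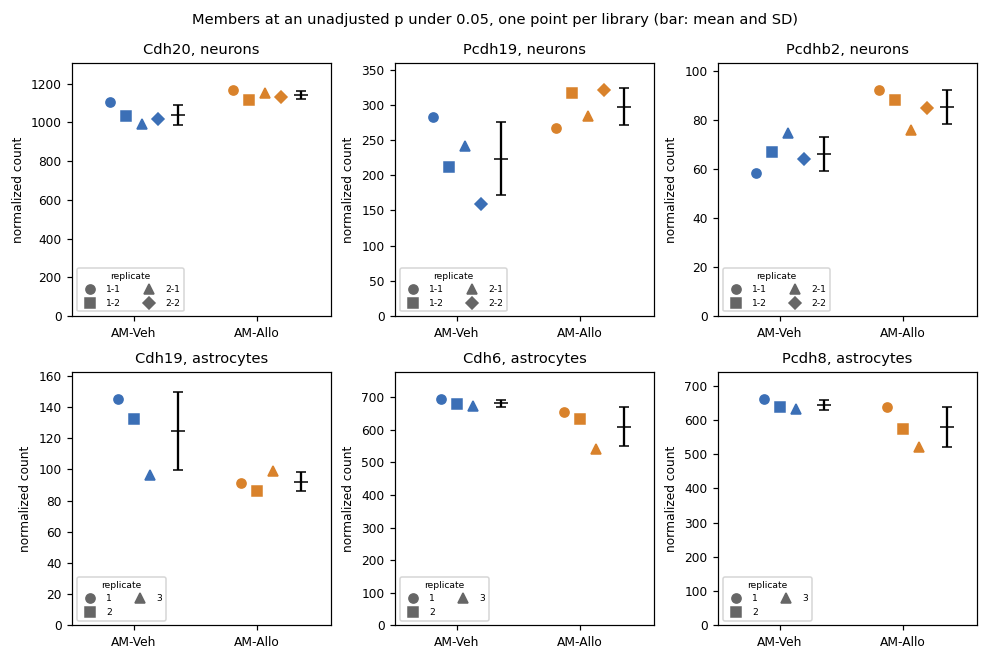
Normalized counts of 6 members with an unadjusted p under 0.05, neurons in the upper row and astrocytes in the lower row, on axes that start at 0. Each symbol is a library, with its shape giving the replicate number, and the black bar is the mean with the SD (n = 4 or n = 3). For Cdh20 and Pcdhb2 all AM-Allo points lie above all AM-Veh points, and for Cdh6 all lie below.

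In astrocytes, 4 of the 43 members tested had an unadjusted p under 0.05. Pcdh10 was higher with Allo (2.33% of members, against 3.72% of the 15380 genes tested), and Cdh19, Cdh6 and Pcdh8 were lower (6.98%, against 3.29%). None passed an adjusted p of 0.05 in limma, against 0.0065% of all genes, and the smallest adjusted p was 0.668. The count fell to 0 without AM-Veh replicate 1, and to 1 without AM-Veh replicate 2, AM-Veh replicate 3 or AM-Allo replicate 3. With 3 libraries against 3, the exact permutation p cannot go below 0.1.

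Cdh19, known from neural crest and the precursors of Schwann cells, stood at 145, 132 and 96.6 in AM-Veh (replicates 1, 2 and 3) and at 91.2, 86.4 and 98.8 in AM-Allo. Only AM-Veh replicate 3 fell within the AM-Allo range. The log2 difference was -0.41 (SE 0.166), with an unadjusted p of 0.0267 and an adjusted p of 0.668 in limma. It was -0.29 without AM-Veh replicate 1 (unadjusted p = 0.132 in limma), and the unadjusted p was above 0.05 too without AM-Veh replicate 2, AM-Allo replicate 1 or AM-Allo replicate 2. In neurons, where the means were 50.2 and 47.8, the log2 difference was -0.08 with a 95% interval from -0.58 to 0.43.

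Cdh6 (K-cadherin) stood at 694, 679 and 673 in AM-Veh and at 655, 634 and 542 in AM-Allo. The groups did not overlap, and AM-Allo replicate 3 was the lowest. The log2 difference was -0.16 (SE 0.0728), with an unadjusted p of 0.0415, an adjusted p of 0.706 in limma and an exact permutation p of 0.1. Without AM-Allo replicate 3 it was -0.08 (unadjusted p = 0.216 in limma), and without any 1 of the AM-Veh libraries the unadjusted p was 0.0687 to 0.103. In neurons Cdh6 stood at 718, 764, 801 and 732 in AM-Veh and at 818, 800, 790 and 817 in AM-Allo, a log2 difference of 0.10 (unadjusted p = 0.0562 in limma) in the other direction. The difference between the cultures was not tested.

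Pcdh8 stood at 661, 640 and 633 in AM-Veh and at 639, 574 and 522 in AM-Allo, with AM-Allo replicate 1 inside the AM-Veh range. The log2 difference was -0.16 (SE 0.0739), with an unadjusted p of 0.0485 and an adjusted p of 0.709 in limma, and without AM-Allo replicate 3 it was -0.09 (unadjusted p = 0.22 in limma). Leaving out AM-Allo replicate 2 or any 1 of the AM-Veh libraries gave an unadjusted p of 0.0727 to 0.126. Cdh6, Pcdhga4 and Pcdhgb5 were the 3 members lower without overlap of the groups (6.98%, against 6.07% of all genes), and none was higher, against 6.42% of all genes. Pcdhgb5 stood at 551, 568 and 546 in AM-Veh and at 526, 511 and 501 in AM-Allo (unadjusted p = 0.0875 in limma). Cdh13 had an unadjusted p of 0.0553, which became 0.00545 without AM-Veh replicate 2 and 0.0391 without AM-Allo replicate 2.

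Over the whole family in astrocytes, 30 of 43 members had a negative log2 difference and 13 a positive difference. Of all genes 49.3% were negative. The median of the members was -0.08, against 0.0014 for all genes. Of the 15 beta genes tested 12 were negative, with a median of -0.10, and none had an unadjusted p under 0.05. Of the 4 gamma genes 3 were negative. No count of this kind was tested. The sum of the 10 astrocyte markers ranged from 250974 to 263026 in AM-Veh and from 250416 to 254193 in AM-Allo. Slc1a2 and S100b (a gene the study singled out in these libraries) were lower at an unadjusted p under 0.05 (20%, against 3.29% of all genes). The sum of the mesenchymal markers ranged from 67697 to 80940 and from 73074 to 78321. Of 6 neuron markers tested, Map2 (log2 difference -0.13, unadjusted p = 0.0299 in limma) and Dcx (-0.36, unadjusted p = 0.03) were lower with Allo (33.3%, against 3.29%). Of 9 microglial markers Cx3cr1 was lower (11.1%), with a log2 difference of -0.58 and an unadjusted p of 0.0117 in limma. The neuron markers summed to between 27530 and 28381 in AM-Veh and between 26773 and 28170 in AM-Allo. Most of that sum was Stmn2, whose AM-Veh mean was 21790 there and 9470 in neuron cultures. Rbfox3, Slc17a7 and Nefl stayed below a mean of 10 in astrocytes, so the sum says little about neurons. The microglial markers summed to between 1445 and 1921 and between 1490 and 1646. The part of these cells in the result was not tested.

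Pcdh10, a delta-2 protocadherin that binds the WAVE complex and takes part in synapse elimination, had the widest within-group spread of the 43 members tested in astrocytes. In astrocytes it stood at 18329, 19870 and 17513 in AM-Veh and at 17448, 26846 and 88634 in AM-Allo. AM-Allo replicate 3 was far above every other library, and AM-Allo replicate 1 was below the whole AM-Veh group. This gave a log2 difference of 0.90 (SE 0.39), with an unadjusted p of 0.0379, an adjusted p of 0.693 in limma and an exact permutation p of 0.4. Without AM-Allo replicate 3 the log2 difference was 0.22 (unadjusted p = 0.0938 in limma), without any 1 of the AM-Veh libraries the unadjusted p was 0.055 to 0.0932, and with a robust fit or without the trend the unadjusted p was 0.258 or 0.184 in limma. Its within-group SD was 0.861 on the log2 scale, above that of 99.5% of the genes tested, where the median gene had 0.0929.

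The sum of the other members did not stand apart in that library. Without Pcdh10 the members summed to 51238 normalized counts in AM-Allo replicate 3, within the range of 51128 to 52115 of the other 5 libraries. Cdh2 made up 41039 of that sum, so it shows little of the single members. Among the astrocyte libraries AM-Allo replicate 3 was the lowest for Cdh6 (542) and the highest for Cdh11 (681). With Pcdh10 the sum was 139873, against 68624 to 77974. That library had the most estimated reads, 28600000 against 22200000 to 24300000.

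In neurons Pcdh10 stood at 28073, 26020, 41522 and 48823 in AM-Veh and at 35092, 22867, 17705 and 38997 in AM-Allo. The groups overlapped across most of their range, and the within-group SD of 0.488 was above that of 94.96% of the genes tested, though below those of Pcdhgb6 (0.548) and Cdh5 (0.529). The log2 difference was -0.35 with a 95% interval from -0.94 to 0.23. It was 0.07 within set 1 and -0.78 within set 2, where both AM-Allo libraries lay below both AM-Veh libraries. Without Pcdh10 the members summed to between 39589 and 41003 in neuron libraries.

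**Figure D4:**
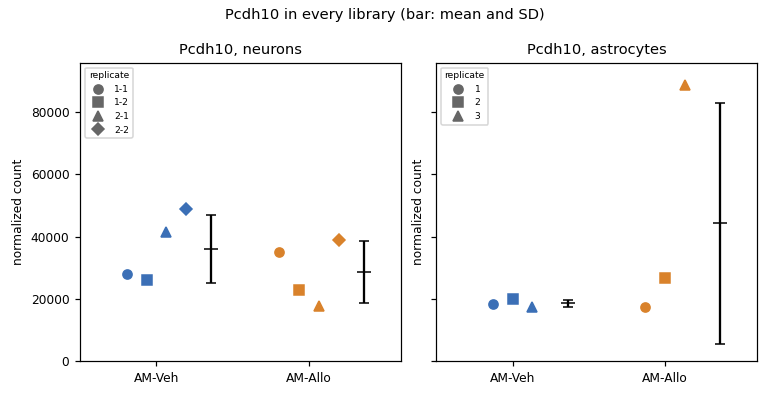
Normalized counts of Pcdh10 in each of the 8 neuron libraries (left) and 6 astrocyte libraries (right) on a common axis that starts at 0. Each symbol is a library and the black bar is the mean with the SD (n = 4 or n = 3). AM-Allo replicate 3 of astrocytes stands at 88634, and the other 5 astrocyte libraries lie between 17448 and 26846.

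The promoter of Pcdh10 is shown because this gene had the widest spread in astrocytes, and that of Cdh20 because it had the smallest p in neurons. Both are windows of 300 bases that end just past the start of the gene in RefSeq (GRCr8), on the plus strand at chr2:130553188-130553487 and chr13:21515017-21515316, written 5′ to 3′. Capitals mark CGCT, the core of an element known from clustered protocadherin promoters, and TGACG, the core of the cAMP response element bound by CREB, each on either strand. No CGCT match overlaps a TGACG match in these sequences.
Pcdh10: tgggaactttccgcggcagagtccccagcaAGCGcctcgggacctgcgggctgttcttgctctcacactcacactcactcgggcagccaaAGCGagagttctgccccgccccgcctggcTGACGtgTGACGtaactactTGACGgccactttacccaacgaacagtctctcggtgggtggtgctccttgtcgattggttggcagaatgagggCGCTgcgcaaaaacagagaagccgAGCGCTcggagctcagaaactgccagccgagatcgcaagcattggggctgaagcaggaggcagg
Cdh20: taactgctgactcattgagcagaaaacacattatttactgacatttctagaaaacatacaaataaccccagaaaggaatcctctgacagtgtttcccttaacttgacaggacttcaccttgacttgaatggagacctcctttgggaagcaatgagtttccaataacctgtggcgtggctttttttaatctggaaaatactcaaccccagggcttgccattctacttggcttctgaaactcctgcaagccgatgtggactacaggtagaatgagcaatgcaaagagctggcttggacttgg

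The Pcdh10 promoter held 5 matches of CGCT over both strands, 2 of which overlap each other as AGCGCT, and 3 of TGACG, and that of Cdh20 held neither, so it has no capitals. Promoters were found for 35 of the 49 members, 36 sequences in all. CGCT was in 15 of 17 clustered promoters (88.2%), in 15 of 19 others (78.9%) and in 60.9% of all 33365 promoters of that length. TGACG was in 3 of 17 clustered promoters (17.6%), in 3 of 19 others (15.8%) and in 21.2% of all. The whole palindrome TGACGTCA, which contains TGACG on both strands, was in none of the 36 and in 1.83% of all. A match is a description of these letters alone.

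Within the neuron libraries, more members differed between the sets than between the treatments. In a model with treatment and set, 12 of 48 members passed an adjusted p of 0.05 in limma between set 2 and set 1. Of these 8 were higher in set 2 (16.7%, against 9.61% of all genes) and 4 were lower (8.33%, against 7.61%). The 8 were Pcdhgb6, Cdh12, Pcdh18, Pcdhga4, Pcdh8, Cdh4, Cdh2 and Cdh11, and the 4 were Pcdh17, Pcdhb20, Cdh24 and Cdh13. Some of these calls rested on single libraries. Pcdh8 no longer passed without any 1 of the AM-Allo libraries (adjusted p = 0.0623 to 0.067 in limma). Cdh4 no longer passed without AM-Veh 1-2, AM-Veh 2-1, AM-Allo 1-1 or AM-Allo 2-2 (0.0525 to 0.094). Cdh11 no longer passed without any 1 of the AM-Veh libraries, AM-Allo 1-2 or AM-Allo 2-2 (0.0564 to 0.0933). Pcdhga4 no longer passed without AM-Veh 1-2, AM-Veh 2-2, AM-Allo 1-1, AM-Allo 1-2 or AM-Allo 2-1 (0.0575 to 0.127). Without the trend in the model the calls of Cdh2, Cdh13, Cdh4, Cdh11 and Pcdh8 were lost (adjusted p = 0.0963, 0.0605, 0.0621, 0.0841 and 0.113 in limma), and that of Cdh2 was also lost with quantile normalization (adjusted p = 0.079). Pcdh10 gained a call without AM-Allo 2-1, with a log2 difference of 0.63 (adjusted p = 0.00155 in limma) in place of 0.31.

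**Figure D5:**
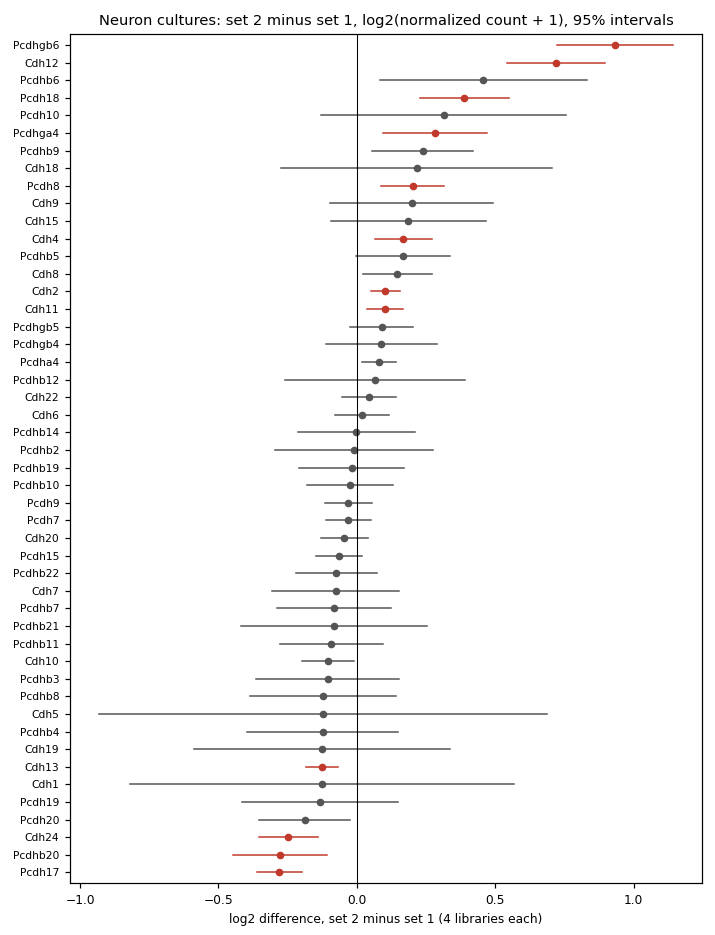
Set 2 minus set 1 on the log2(normalized count + 1) scale for the 48 members tested in neurons, ordered by the difference. Points are limma estimates from 4 libraries a set with treatment in the model, lines are 95% intervals, and red marks an adjusted p under 0.05. Pcdhgb6 at 0.93 and Cdh12 at 0.72 stand at the upper end and Pcdh17 at -0.28 at the lower end.

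Pcdhgb6, a gamma protocadherin, stood at 96.8, 102, 119 and 99.0 in set 1 (AM-Veh 1-1 and 1-2, then AM-Allo 1-1 and 1-2) and at 190, 206, 192 and 211 in set 2. The sets were far apart and the treatments were not. The ratio of the means was 1.91 and the log2 difference was 0.93 (SE 0.0982, adjusted p = 8.85e-06 in limma). The other gamma genes differed less, by 0.28 for Pcdhga4 (adjusted p = 0.0378 in limma) and by 0.09 for both Pcdhgb4 and Pcdhgb5.

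Cdh12, a type II cadherin of the brain, stood at 193, 210, 201 and 184 in set 1 and at 341, 284, 325 and 352 in set 2. All set 2 libraries lay above all set 1 libraries, with a log2 difference of 0.72 (SE 0.0835, adjusted p = 2.36e-05 in limma). Pcdh18, a delta-2 protocadherin, had means of 235 ± 13.3 and 307 ± 20.2 (SD, n = 4), a log2 difference of 0.39 (adjusted p = 0.00205 in limma).

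Pcdh17 stood at 1612, 1574, 1667 and 1643 in set 1 and at 1394, 1249, 1337 and 1374 in set 2, without overlap. Its log2 difference was -0.28 (SE 0.0377, adjusted p = 9.8e-05 in limma). Pcdhb20 had means of 206 ± 7.73 and 170 ± 3.38 (SD, n = 4) and a log2 difference of -0.28 (adjusted p = 0.0242 in limma), whereas its neighbours in the cluster, Pcdhb19 and Pcdhb21, were at -0.02 and -0.08. Pcdhb20 was the only beta gene of 16 past the adjusted threshold, and it no longer passed without AM-Veh replicate 1-2 (adjusted p = 0.0513 in limma) or without any 1 of the 4 AM-Allo libraries (0.0552 to 0.0861). Cdh24, a type II cadherin, had means of 613 ± 10.1 and 517 ± 36.8 (SD, n = 4) and a log2 difference of -0.25 (adjusted p = 0.00262 in limma).

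Markers of glia and mesenchyme differed between the sets too. The astrocyte markers summed to between 203019 and 215235 in set 1 and between 239859 and 263325 in set 2, with 4 of 10 higher and 2 lower in set 2 at an adjusted p under 0.05. The oligodendrocyte lineage markers summed to between 56441 and 60483 in set 1 and between 52475 and 54436 in set 2, with 1 of 9 higher and 5 lower. The mesenchymal markers summed to between 1006 and 2688 and between 666 and 791, with 1 of 7 higher and 4 lower. At that threshold 9.61% of all genes were higher in set 2 and 7.61% were lower. The neuron markers overlapped, at 63582 to 68019 and 61329 to 72516. The part of these cells in the set difference was not tested.

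The effect of Allo was also compared between the sets. No member passed an adjusted p of 0.05 in limma for the difference of the Allo effect, against 0.0784% of all genes, and 6 had an unadjusted p under 0.05 (12.5%, against 9.53%). The smallest p was that of Pcdh8, whose counts were 1203 and 1163 in AM-Veh and 1088 and 1063 in AM-Allo of set 1, and 1291 and 1178 in AM-Veh and 1379 and 1351 in AM-Allo of set 2. Its Allo difference was thus -0.14 in set 1 and 0.15 in set 2 on the log2 scale (unadjusted p = 0.0021, adjusted p = 0.22 in limma). The other 5 were Pcdh20, Cdh7, Cdh8, Pcdha4 and Pcdh10, the last with a more negative difference in set 2 (unadjusted p = 0.0287, adjusted p = 0.438 in limma).

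Among genes whose products work with the family, none passed an adjusted p of 0.05 for Allo in limma in either culture. Of 18 catenins and cadherin partners, 1 was higher in neurons at an unadjusted p under 0.05 (5.56%, against 3.21% of all genes). This was Afdn (afadin, which ties nectins to actin), with means of 1962 ± 46.3 and 2103 ± 94.3 (SD, n = 4, log2 difference 0.10, unadjusted p = 0.0294 in limma). In astrocytes Ajuba, a LIM protein of adherens junctions, was higher (5.56%, against 3.72%), at 2874 ± 138 and 3127 ± 66.1 (SD, n = 3, log2 difference 0.12, unadjusted p = 0.0118 in limma). No partner of that list was lower at an unadjusted p under 0.05. Afdn, and Fyn among the signalling partners, are in the list of synapse formation genes that the study picked from these libraries, so neither is independent evidence of a direction.

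Of 13 signalling partners of protocadherins, 3 (23.1%, against 3.21% of all genes) were higher in neurons at an unadjusted p under 0.05. Cyfip2, a subunit of the WAVE complex, had means of 11116 ± 169 and 12001 ± 101 (SD, n = 4, log2 difference 0.11, unadjusted p = 0.00153 and adjusted p = 0.442 in limma). Ptk2b (Pyk2), a kinase held in check by clustered protocadherins, was at 656 ± 65.5 and 825 ± 96.6 (log2 difference 0.33, unadjusted p = 0.00481 in limma), and the kinase Fyn at 13043 ± 216 and 13648 ± 187 (0.07, unadjusted p = 0.0351). In astrocytes Cyfip2 was the only call and was lower (7.69%, against 3.29% of all genes), at 422 ± 15.1 and 370 ± 19.3 (SD, n = 3, log2 difference -0.19, unadjusted p = 0.0259 in limma).

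Of 15 regulators of the clusters, among them cohesin subunits, Pds5b alone was higher in neurons (6.67%, against 3.21% of all genes). Its log2 difference was 0.10, with an unadjusted p of 0.032 in limma. In astrocytes none of the 15 had an unadjusted p under 0.05. Of the wider cadherin superfamily, 3 of 15 genes were higher in neurons, against 3.21% of all genes: Clstn2 (calsyntenin 2, a synaptic adhesion protein) by 0.15, Cdhr1 (a photoreceptor cadherin) by 0.32 and Fat4 (a giant cadherin of planar polarity) by 0.23 on the log2 scale, with unadjusted p of 0.0223, 0.0328 and 0.0336 in limma. In astrocytes 1 of 17 was lower (5.88%, against 3.29% of all genes), Cdhr1, by -0.29 on the log2 scale (unadjusted p = 0.013 in limma). Of the whole list, 13 of 15 had positive differences in neurons, where 49.2% of all genes did, and 14 of 17 had negative differences in astrocytes, where 49.3% of all genes did.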

How the data were processed

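Hippocampal cultures gave 8 neuron and 6 astrocyte libraries, grouped by the cell type and treatment in their labels. The authors made stranded poly(A) libraries, quantified them with Salmon 0.14 against rat Ensembl transcripts, summed to genes with tximport, and deposited counts normalized with DESeq2 1.18.1, a signal in units of counts that also corrects for transcript length between libraries. The authors also deposited variance-stabilized values on a log2 scale. In the neuron table of these, the set means were equal for all 18239 genes (largest difference 7.5e-09), so the set difference had been removed there.

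Genes with a mean of at least 10 (15314 in neurons and 15380 in astrocytes) were tested on log2(normalized count + 1) with limma 3.58.1 in R 4.3.3 (eBayes with trend), with no covariate, and Benjamini-Hochberg adjustment over all genes. Fold changes on this scale understate the change of low genes. The set comparison had treatment in the model. Exact permutation tests were two-sided. Scripts were tested on simulated data. Raw counts and transcript lengths were not used here.

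The members and lists were chosen with earlier results of these data known. Genes named are the 2 with the highest AM-Veh mean in each of 9 subgroups and culture, those with an unadjusted p under 0.05 for Allo, the 3 largest rises and falls between sets past the adjusted threshold, and Cdh20, and any other member named was chosen after its values were seen. Partner genes named have the smallest p, up to 3 a list. Deviations of same-numbered neuron libraries from their group means correlated at 0.296, 0.229, 0.265 and 0.273. Those of libraries in the same set with another number correlated at 0.185, 0.236, 0.211 and 0.196. A replicate block, by the set or by the whole number, was therefore fitted beside the main model. The alternatives changed the filter, pseudocount, scaling, trend, values used, block and libraries.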

Additional observations from a re-analysis of the deposited data

How the results depend on the processing

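In neurons the count of members at an unadjusted p under 0.05 for Allo was 3, and it was 8 (16.7% of 48, against 14.4% of all genes) from the variance-stabilized values, 6 with the replicate block by the first part of the number and 5 with the block by the whole number. The variance-stabilized neuron values had the set difference removed by the authors, so their test does not count the degrees of freedom that this used. Leaving out libraries gave 3 to 4. In astrocytes the count was 4 and ranged from 0 to 4 when 1 library was left out. Same-numbered astrocyte libraries did not deviate together (correlations of 0.0241, -0.00698 and 0.0117), and the block left the count at 4. Between sets, 12 members passed the adjusted threshold, and 0 did so from the variance-stabilized values, as their construction requires, with a range of 8 to 12 over the other alternatives. Counts of members past the adjusted threshold for Allo, and for the difference of its effect between sets, stayed at 0 in all alternatives. Of 1441 values for single members and medians, 1366 kept their side of the threshold and their direction. Of the rest, 53 lost the call, 19 gained it, 3 moved by more than the spread and 0 reversed. These values do not cover every result of every member. They leave out the set calls lost with the variance-stabilized values. The call that Pcdhga4 gained for Allo with the block by the first part of the number is also left out. A gene near the minimum of 10 rests on about as many reads.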
